A study of Mus musculus with 20 samples.

Results

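The genes described here are 8 genes of osteoclast cell fusion and of costimulation through the immunoreceptor tyrosine-based activation motif (ITAM): *Dcstamp*, *Ocstamp*, *Oscar*, *Tyrobp*, *Trem2*, *Fcer1g*, *Syk* and *Plcg2*. They were chosen by function, as a named list, with earlier results of these data known. All 8 were found among the 54532 genes of the count table. RNA was sequenced from the temporomandibular joint of mice, and condylar heads were collected with part of the subchondral bone. Every animal carried Acan-CreERT2, a tamoxifen-inducible Cre recombinase driven by the promoter of aggrecan, and Loxl2 fl/fl, so that both groups shared these alleles. The 8 control mice received vehicle, and the 12 LOXL2_KO mice received tamoxifen at 75 mg/kg by intraperitoneal injection on 5 consecutive days and then once a month. Injections began at 6 months of age in mice of both sexes, and tissue was collected after 4 months. The drug and the deletion cannot be told apart, because no mouse without the alleles received tamoxifen. The Cre was designed to act in aggrecan-expressing cells, and the counts do not show in which cells it acted.

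Osteoclasts are the bone-resorbing cells of the skeleton, and they form when precursors of the monocyte and macrophage lineage fuse into cells with many nuclei. Fusion depends on DC-STAMP and OC-STAMP, a pair of related membrane proteins. Besides the cytokines M-CSF and RANKL, the precursors need a second signal, which comes from receptors that carry no signalling tail of their own and pair with the ITAM adaptors DAP12 (encoded by *Tyrobp*) or FcRγ (encoded by *Fcer1g*). TREM2 signals through DAP12 and OSCAR through FcRγ. The phosphorylated ITAM recruits the kinase SYK, which activates phospholipase Cγ2, and the calcium release that follows activates NFATc1, the master transcription factor of osteoclasts.

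Library totals ran from 14177222 to 23795467 counts in the control libraries and from 11153820 to 27045668 in the libraries labelled knockout. Levels are given as CPM, counts scaled by library size times the TMM scaling factor of edgeR, which ran from 0.7174 (control replicate 8) to 1.183 (knockout replicate 8). *Loxl2*, the targeted gene, had a mean of 64.5 CPM in the controls (SD 30.9, n = 8) and of 101 CPM in LOXL2_KO (SD 26.9, n = 12). It was thus not lower in the libraries labelled knockout (log2 fold change 0.64, SE 0.28, edgeR adjusted p = 0.101; 0.74, adjusted p = 0.0313 without knockout replicate 12; 0.32, SE 0.24, adjusted p = 0.425 in the libraries with at least 20 CPM of *Acan*), and an exact two-sided permutation test of mean log2 CPM gave a difference of 0.77 with p = 0.0271. The lowest controls were replicates 8 (16 CPM) and 6 (29.2 CPM). Counts over the whole gene do not show how much of it was the intact transcript. At the protein level, the paper reports less LOXL2 in the knockout mice by immunohistochemistry. The cartilage genes *Acan* and *Col2a1* were detected, but *Acan* was at 2.35 and 2.22 CPM in control replicates 6 and 8 and at 13.8, 5.18 and 9.73 CPM in knockout replicates 4, 5 and 7, against at least 48.9 CPM in the other 15 libraries. A list of 6 skeletal muscle genes summed to 32400 to 139000 CPM in control and 24800 to 66900 CPM in LOXL2_KO, so muscle RNA was present throughout, and 2 of the 6 genes fell. The labels name no batch.

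To ask whether the fusion and costimulation genes differed between the groups, all genes were tested in 1 fit and the 8 rows were read from it. In the libraries labelled knockout, 7 of the 8 genes were higher at an adjusted p under 0.05 (edgeR quasi-likelihood test, Benjamini-Hochberg over 15984 genes), and none was lower. *Oscar* (7.78-fold), *Ocstamp* (7.37-fold) and *Dcstamp* (6.58-fold) had the largest differences of the 8, followed by *Tyrobp* (4.48-fold), *Fcer1g* (3.15-fold), *Trem2* (2.55-fold) and *Syk* (2.04-fold). *Plcg2* did not pass. Of all genes tested, 23% passed the threshold, 12% as higher and 11% as lower. Because the 8 genes were chosen with earlier results of these data known, this contrast is a description and not an independent test. All 8 log2 fold changes were above 0, as were 48.1% of those of all genes. The median log2 fold change was 1.91 over the 8 genes and -0.02 over all genes tested. All 8 genes passed the low-count filter. These are bulk samples, in which more cells of a type and more RNA per cell cannot be told apart.

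**Figure D1:**
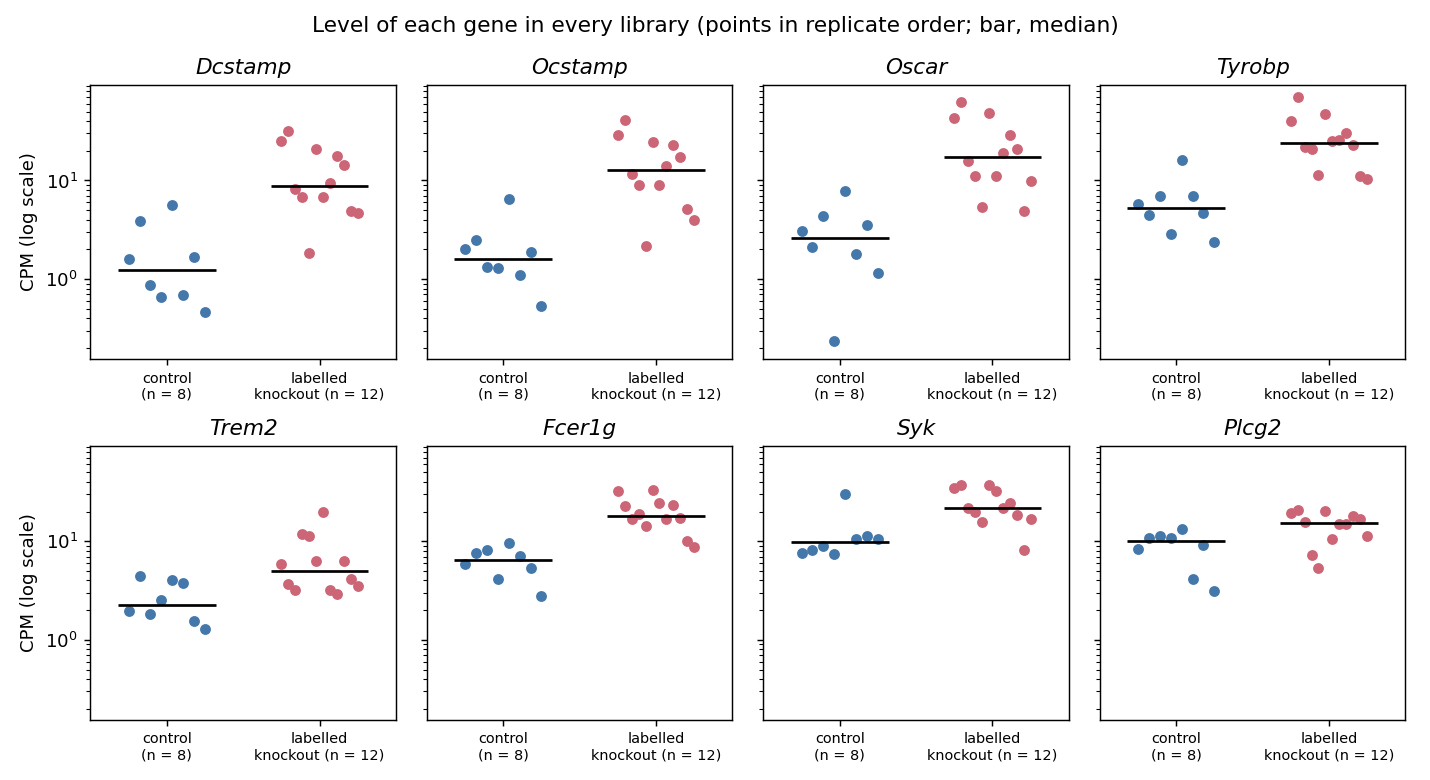
Level of each of the 8 genes (CPM, log axis) in 8 control libraries (blue) and 12 libraries labelled knockout (red), with points in replicate order and the median as a bar. For *Fcer1g*, 11 of the 12 libraries labelled knockout lay above the highest control, and for *Syk* 4 did.

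*Dcstamp* (chr15:39745930-39760938, plus strand, GRCm38), which encodes the dendritic cell-specific transmembrane protein needed for fusion, was at 0.459 CPM in the lowest control library, 1.23 CPM at the median and 5.59 CPM in the highest. In LOXL2_KO the lowest library was at 1.86 CPM, the median at 8.89 CPM and the highest at 31.6 CPM. Each of the 12 LOXL2_KO libraries exceeded the median of the controls, and 9 exceeded the highest control, which was replicate 5. The log2 fold change was 2.72 (SE 0.55, adjusted p = 0.0025). The levels rest on 6 to 82 counts per control library and 33 to 985 per library labelled knockout.

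*Ocstamp* (chr2:165393760-165400405, minus strand), which encodes the osteoclast stimulatory transmembrane protein, ran from 0.536 CPM through a median of 1.61 CPM to 6.47 CPM in control. Its range in LOXL2_KO was 2.19 to 41.5 CPM with a median of 12.8 CPM. The groups overlapped in the same places as for *Dcstamp*: control replicate 5 was again the highest control, and knockout replicates 5 and 12 were the lowest for both genes. *Ocstamp* was higher by a log2 fold change of 2.88 (SE 0.53, adjusted p = 0.00154). In single libraries both fusion genes were highest in knockout replicate 2, with *Dcstamp* at 31.6 CPM and *Ocstamp* at 41.5 CPM, followed by replicates 1 and 6.

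*Oscar* (chr7:3609813-3616157, minus strand) encodes the osteoclast-associated receptor, a collagen-binding receptor. Because its difference was the largest of the 8, the 250 bases before its RefSeq start (GRCm38.p6, no annotated exon in the window) are shown, with capitals marking matches to GAGGAA or TTCCTC (the core letters bound by the myeloid factor PU.1) and to GGAAAA or TTTTCC (the core letters bound by NFAT proteins).
*Oscar*, chr7:3616158-3616407, minus strand: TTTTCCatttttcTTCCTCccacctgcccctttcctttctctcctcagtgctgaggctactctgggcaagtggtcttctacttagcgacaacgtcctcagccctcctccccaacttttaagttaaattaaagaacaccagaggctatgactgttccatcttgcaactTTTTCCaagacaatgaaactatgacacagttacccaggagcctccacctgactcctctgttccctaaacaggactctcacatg
Both kinds of letters occurred in the window, the PU.1 letters once and the NFAT letters at 2 places. Among 32851 RefSeq promoter windows of this length, 23.3% held the PU.1 letters and 20.4% held the NFAT letters on either strand, so matches of this kind are frequent. A match describes the letters and does not show binding.

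The level of *Oscar* was 0.238 CPM in the lowest control library, 2.61 CPM at the median and 7.9 CPM in the highest, and 4.96, 17.4 and 63.0 CPM at the same 3 points in LOXL2_KO. Only knockout replicates 5 and 11 fell within the control range, and control replicate 4, at 4 counts, was far below the other controls. The log2 fold change was 2.96 (SE 0.56, adjusted p = 0.00177).

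*Fcer1g* (chr1:171229572-171234365, minus strand), which encodes the adaptor FcRγ that *Oscar* needs, had the smallest SE of the 8 genes. Its control libraries ran from 2.76 to 9.54 CPM around a median of 6.44 CPM, and those labelled knockout from 8.65 to 32.9 CPM around a median of 18 CPM. Only knockout replicate 12 fell below the highest control, and the log2 fold change was 1.66 (SE 0.26, adjusted p = 0.00104). FcRγ is also the adaptor of Fc receptors on macrophages and mast cells. The summed level of a list of 7 mast cell genes ran from 1.91 to 19.7 CPM in control and from 5.33 to 187 CPM in LOXL2_KO, with 4 of its 5 tested genes higher (*Cma1* 3.30, *Mcpt4* 3.35 and *Tpsb2* 3.85, log2), and its part in the level of *Fcer1g* was not tested.

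*Tyrobp* (chr7:30413760-30417585, plus strand), the gene of the adaptor DAP12, was at 2.37 CPM in the lowest control library, 5.27 CPM at the median and 16.1 CPM in the highest. In LOXL2_KO it ran from 10.3 CPM through a median of 24.0 CPM to 69.6 CPM. Apart from control replicate 5, no control library reached the lowest library labelled knockout. The log2 fold change was 2.16 (SE 0.39, adjusted p = 0.00147).

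*Trem2* (chr17:48346401-48354147, plus strand), a lipid-sensing receptor of macrophages, microglia and osteoclast precursors, was highest in other libraries than *Dcstamp*, *Ocstamp*, *Oscar* and *Tyrobp* were. Its window is shown beside that of *Oscar*, and capitals mark the PU.1 letters and TGANTCA, a loose pattern searched for AP-1 in which N is any base.
*Trem2*, chr17:48346151-48346400, plus strand: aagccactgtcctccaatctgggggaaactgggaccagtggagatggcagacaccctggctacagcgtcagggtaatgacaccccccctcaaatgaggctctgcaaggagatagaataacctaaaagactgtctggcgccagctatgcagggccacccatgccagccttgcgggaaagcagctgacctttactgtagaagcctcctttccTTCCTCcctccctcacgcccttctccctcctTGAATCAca
The PU.1 letters matched once, as in *Oscar*, and the AP-1 letters once (TGAATCA, with A as N), while the NFAT letters did not occur in the window. The AP-1 letters were found in 6.75% of all windows and the NFAT letters in 20.4%, so a window without the NFAT letters is the usual case.

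In the control libraries *Trem2* was at 1.3 CPM at the lowest, 2.26 CPM at the median and 4.39 CPM at the highest. The lowest library labelled knockout was at 2.94 CPM, the median at 5.02 CPM and the highest at 19.7 CPM. The 3 highest were replicates 7 (19.7 CPM), 4 (11.8 CPM) and 5 (11.3 CPM), and the other 9 ran from 2.94 to 6.31 CPM. Replicate 5 was the lowest of its group for *Dcstamp* and *Ocstamp*. *Trem2* was higher by a log2 fold change of 1.35 (SE 0.38, adjusted p = 0.0151), and 6 libraries labelled knockout lay above the highest control. Its 3 highest libraries were the 3 of that group with low *Acan*. Without the 5 libraries under 20 CPM of *Acan*, *Trem2* had a log2 fold change of 0.69 (SE 0.28, adjusted p = 0.121), whereas *Dcstamp* (2.69), *Ocstamp* (2.88), *Oscar* (3.02), *Tyrobp* (2.20) and *Fcer1g* (1.58) passed with values close to those over all libraries. This set of libraries was chosen after seeing the data.

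*Syk* (chr13:52583173-52648792, plus strand), the kinase that binds the phosphorylated ITAM, was at 7.45 CPM in the lowest control library, 9.71 CPM at the median and 29.9 CPM in the highest, and at 8.22, 21.7 and 37.4 CPM at the same points in LOXL2_KO. Without replicate 5 the controls spanned 7.45 to 11.4 CPM, and 11 of the 12 LOXL2_KO libraries exceeded the median of the controls. The log2 fold change was 1.03 (SE 0.29, adjusted p = 0.0142). It was 1.02 without the libraries low in *Acan*, with an adjusted p of 0.0703. B cells also use SYK, and control replicate 5, the outlying *Syk* library, held the highest sum of 6 B cell genes of all libraries, 37.7 CPM against 1.31 to 8.09 CPM in the other controls. Its osteoclast effector sum was also the highest of the controls, and the part of either in the *Syk* level was not tested.

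*Plcg2* (chr8:117498291-117635142, plus strand) encodes the phospholipase that *Syk* activates. The window before its RefSeq start is shown because the genes most like *Plcg2* over all 20 libraries (*Runx2*, *Pth1r* and *Col11a1*) were not myeloid genes. Capitals mark CACGTG, the E-box letters bound by MITF and other factors.
*Plcg2*, chr8:117498025-117498274, plus strand: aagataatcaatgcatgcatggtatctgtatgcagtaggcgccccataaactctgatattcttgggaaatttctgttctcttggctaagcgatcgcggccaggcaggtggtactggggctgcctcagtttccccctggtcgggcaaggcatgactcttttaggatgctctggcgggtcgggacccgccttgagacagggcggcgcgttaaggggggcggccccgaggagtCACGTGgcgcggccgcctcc
These letters matched once and occurred in 6.02% of all windows, while the PU.1, NFAT and AP-1 letters did not occur in this one. Such absence is the usual case, since 23.3% of all windows held the PU.1 letters, 20.4% the NFAT letters and 6.75% the AP-1 letters. RefSeq windows were found for 5 of the 8 genes, and the PU.1 letters were present for *Oscar*, *Trem2* and *Syk*. The window of *Fcer1g* held none of the letters searched, so their absence does not set *Plcg2* apart.

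Control libraries held *Plcg2* at 3.14 CPM at the lowest, 10.1 CPM at the median and 13.3 CPM at the highest. Those labelled knockout ran from 5.29 through 15.4 to 20.6 CPM. The lowest libraries were control replicates 8 and 6 and knockout replicates 5 and 4, all low in *Acan*, and 10 of 12 LOXL2_KO libraries exceeded the median of the controls. The log2 fold change was 0.71 (SE 0.27, 95% interval 0.19 to 1.23), and the adjusted p was 0.0574 with edgeR and 0.0343 with DESeq2, by which 11.7% of genes were higher. *Plcg2* passed without control replicate 5 (adjusted p = 0.037) or without knockout replicate 4 (0.0386), 5 (0.0206) or 12 (0.0491). Without the 5 libraries low in *Acan* the log2 fold change was 0.68 (SE 0.14, adjusted p = 0.0067).

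**Figure D2:**
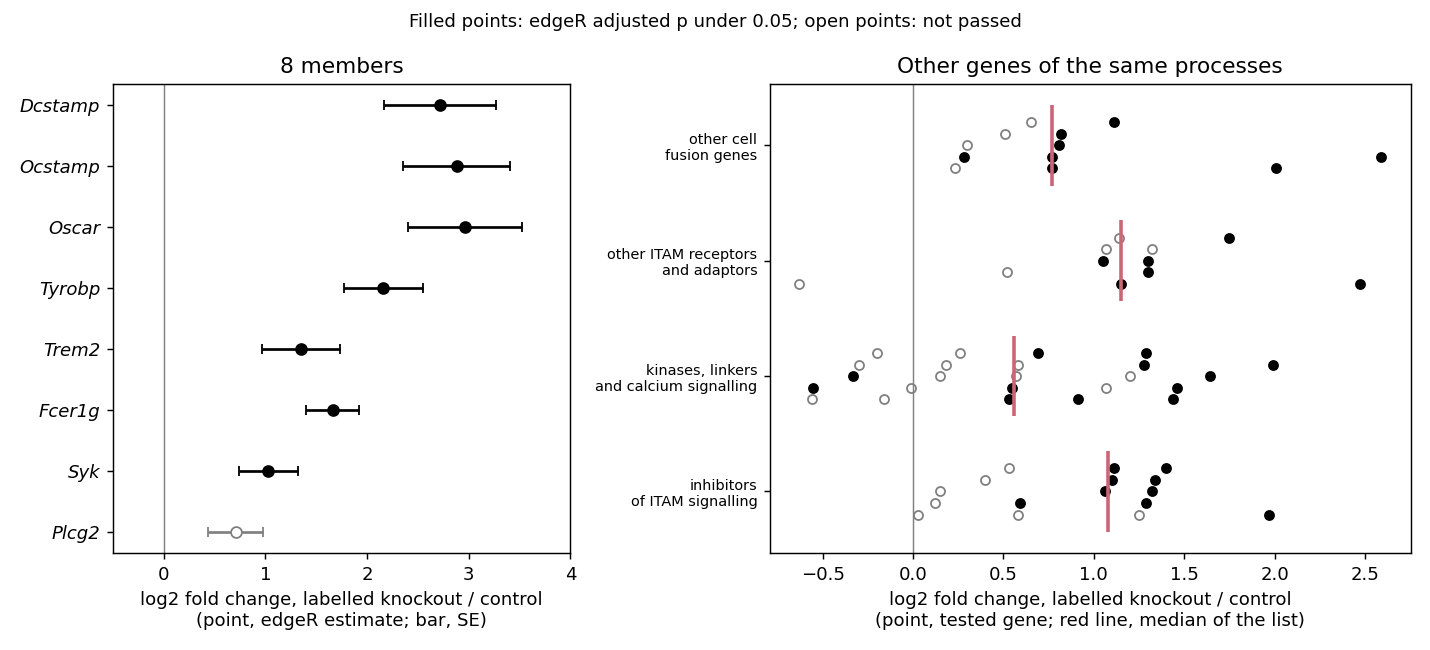
Left, log2 fold change of each of the 8 genes in LOXL2_KO against control (point, edgeR estimate; bar, SE). Right, log2 fold change of each tested gene of 4 lists of the same processes, with the list median in red; filled points passed an adjusted p of 0.05, and medians were 0.77, 1.15, 0.56 and 1.08 from top to bottom.

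Levels of different genes were compared per kilobase of merged exon. Merged exons join all annotated transcripts of a gene (4946 bases for *Trem2* and 9362 for *Syk*) and can be longer than the transcript that was expressed. A gene with such a length is placed too low, and the order was not computed with other lengths. In control the adaptors were highest, *Tyrobp* with a median of 7.9 and *Fcer1g* with 7.36 CPM per kilobase, and these neighbours in the order overlapped (*Tyrobp* was above *Fcer1g* in 6 of 8 libraries). *Plcg2* (2.34), *Oscar* (1.41) and *Syk* (1.04) came next, and *Dcstamp* (0.46), *Trem2* (0.456) and *Ocstamp* (0.44) were not ordered, each being above the next in 4 of 8 libraries. In LOXL2_KO *Tyrobp* (36.0) stood above *Fcer1g* (20.6) in all 12 libraries. *Oscar* (9.41) came next, before *Plcg2* (3.59), and was above it in 11 of 12. By their medians *Ocstamp* (3.49), *Dcstamp* (3.34), *Syk* (2.32) and *Trem2* (1.02) followed. Within libraries this order did not hold throughout, since *Plcg2* was above *Ocstamp* in 4 of 12 and *Ocstamp* above *Dcstamp* in 2 of 12. *Dcstamp* was above *Syk* in 9 of 12, and *Syk* above *Trem2* in 9 of 12, the exceptions being replicates 4, 5 and 7.

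The libraries of each group differed widely, and most of the genes varied together. Over the deviations of the 20 libraries from their group means in log2 CPM, Pearson's r was 0.96 between *Dcstamp* and *Ocstamp*, 0.88 between *Ocstamp* and *Tyrobp* and between *Oscar* and *Tyrobp*, and 0.86 between *Tyrobp* and *Fcer1g*. *Trem2* stood apart over all 20 libraries, with r from -0.25 (with *Plcg2*) to 0.37 (with *Fcer1g*), and its r with its own adaptor gene *Tyrobp* was 0.09. These r include knockout replicates 4, 5 and 7, which are low in *Acan*. In that group *Trem2* was highest there (11.8, 11.3 and 19.7 CPM) and *Plcg2* lowest (7.31, 5.29 and 10.6 CPM). The r between members without these libraries was not computed. *Plcg2* had an r of 0.75 with *Ocstamp*, 0.74 with *Dcstamp*, 0.54 with *Tyrobp* and 0.51 with *Oscar*, but 0.26 with *Syk*, the step before it in the pathway. These coefficients are descriptions over libraries that share their depth and tissue composition across genes.

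**Figure D3:**
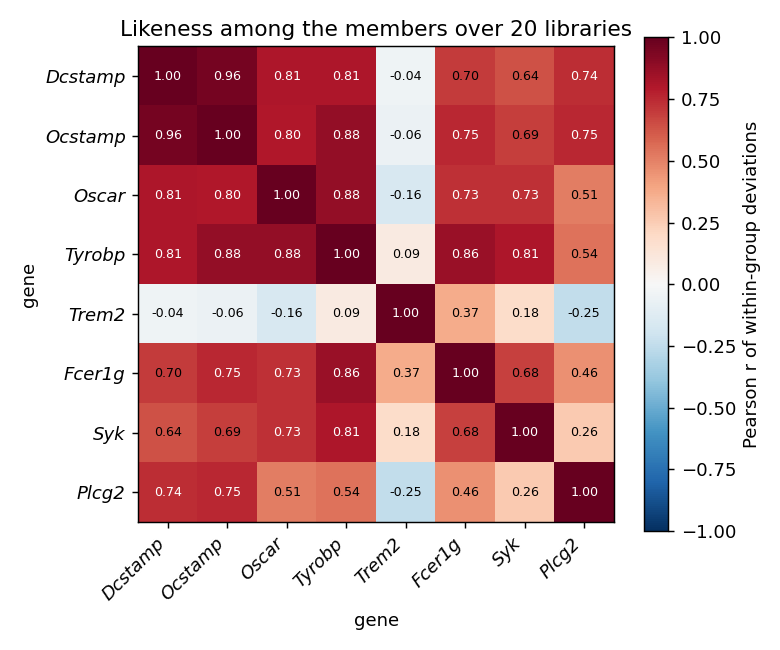
Pearson's r between the 8 genes, computed from deviations of log2 CPM from the group mean over 20 libraries (red, positive; blue, negative). The *Trem2* row holds values from -0.25 to 0.37, and the pair *Dcstamp* and *Ocstamp* reaches 0.96. Libraries low in *Acan* are included.

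Next, each gene was set against 2 marker lists that contain none of the 8: osteoclast effectors (*Acp5*, *Ctsk*, *Calcr* and 5 others) and macrophages (*Adgre1*, *Csf1r*, *Cd68* and 7 others), both as mean log2 CPM, within each group. Among the 12 libraries labelled knockout, r with the osteoclast effector list was 0.99 for *Oscar*, 0.97 for *Dcstamp*, 0.95 for *Ocstamp* and 0.93 for *Tyrobp* (rho 0.99, 0.99, 0.98 and 0.94). Each permutation p of r was 1e-05, the smallest that 100000 resamples can give (8e-05 adjusted over 32 relations). The permutation p of rho was 1e-05 for the first 3 and 3e-05 for *Tyrobp*, and r was at least 0.89 without the 2 libraries farthest from the median. *Syk* had an r of 0.79 (rho 0.87, permutation p = 0.00176 for r, 0.00563 adjusted, and 0.0005 for rho), *Plcg2* one of 0.74 (rho 0.78, permutation p = 0.00493, 0.0143 adjusted, and 0.00472 for rho) and *Fcer1g* one of 0.72 (rho 0.74, permutation p = 0.00913, 0.0225 adjusted, and 0.00817 for rho). For these 3 genes r without the 2 farthest libraries was 0.77, 0.56 and 0.79. *Trem2* had an r of -0.32 with the osteoclast effector list (rho -0.26, permutation p = 0.317 for r and 0.418 for rho).

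The macrophage list gave another order. *Trem2* had the highest r of the 8 with it in LOXL2_KO, 0.82 (rho 0.83, permutation p = 0.00096, adjusted 0.00439, and 0.00155 for rho; r = 0.81 without the 2 farthest libraries). *Fcer1g* followed at 0.70 (rho 0.71, permutation p = 0.0114, adjusted 0.0256, and 0.0118 for rho), with r = 0.53 without the 2 farthest. *Dcstamp* and *Oscar* were at 0.18 (rho 0.22 for both) and *Plcg2* at -0.16 (rho -0.03), with permutation p of 0.575, 0.584 and 0.616 for r and 0.501, 0.485 and 0.921 for rho. Those low values rest on knockout replicates 4, 5 and 7: among the 9 libraries with at least 20 CPM of *Acan*, r with the macrophage list was 0.80 for *Dcstamp*, 0.69 for *Oscar* and 0.88 for *Plcg2* (exact permutation p of 0.0104, 0.0404 and 0.00275, adjusted 0.0185, 0.0497 and 0.00733 over 16 relations). The corresponding rho was 0.80, 0.77 and 0.78 (exact permutation p of 0.0138, 0.0214 and 0.0172), and r without the 2 farthest of the 9 libraries was 0.70, 0.57 and 0.66. In the same 9 libraries *Trem2* had an r of 0.75 with macrophages (rho 0.70, exact permutation p = 0.0212 for r, adjusted 0.0308, and 0.0433 for rho; r = 0.82 without the 2 farthest) and of 0.33 with osteoclast effectors (rho 0.27, exact permutation p = 0.379 for r and 0.493 for rho; r = 0.68 without the 2 farthest).

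In the control libraries, *Dcstamp* had an r of 0.91 with osteoclast effectors (rho 1.0, exact permutation p = 2.48e-05, the smallest that 40320 pairings can give, adjusted 0.000159, and 4.96e-05 for rho; r = 0.78 without the 2 farthest libraries), and *Fcer1g* had one of 0.94 with macrophages (rho 0.98, exact permutation p = 4.96e-05, adjusted 0.000265, and 0.000397 for rho; r = 0.86 without them). The 2 farthest libraries were replicates 5 and 8 for both lists. *Tyrobp* had an r of 0.95 with macrophages (rho 0.79, exact permutation p = 0.00119 for r, adjusted 0.00476, and 0.0279 for rho; r = 0.83 without the 2 farthest) and of 0.89 with osteoclast effectors (rho 0.52, exact permutation p = 0.0061 for r, adjusted 0.0163, and 0.197 for rho; r = 0.54 without them). With macrophages *Oscar* had an r of 0.80 (rho 0.79, exact permutation p = 0.0229, adjusted 0.0385, and 0.0279 for rho; r = 0.94 without the 2 farthest). *Dcstamp* was also at 0.80 with macrophages (rho 0.74, exact permutation p = 0.0159, adjusted 0.0283, and 0.0458 for rho), which became 0.46 without the same libraries. *Ocstamp* with macrophages rested on them, since its r of 0.87 (exact permutation p = 0.012, rho 0.64 with p = 0.0962) became 0.31. *Trem2* had an r of 0.58 with macrophages in control (rho 0.57, exact permutation p = 0.139 for r and 0.151 for rho), which became 0.0 without the same libraries.

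**Figure D4:**
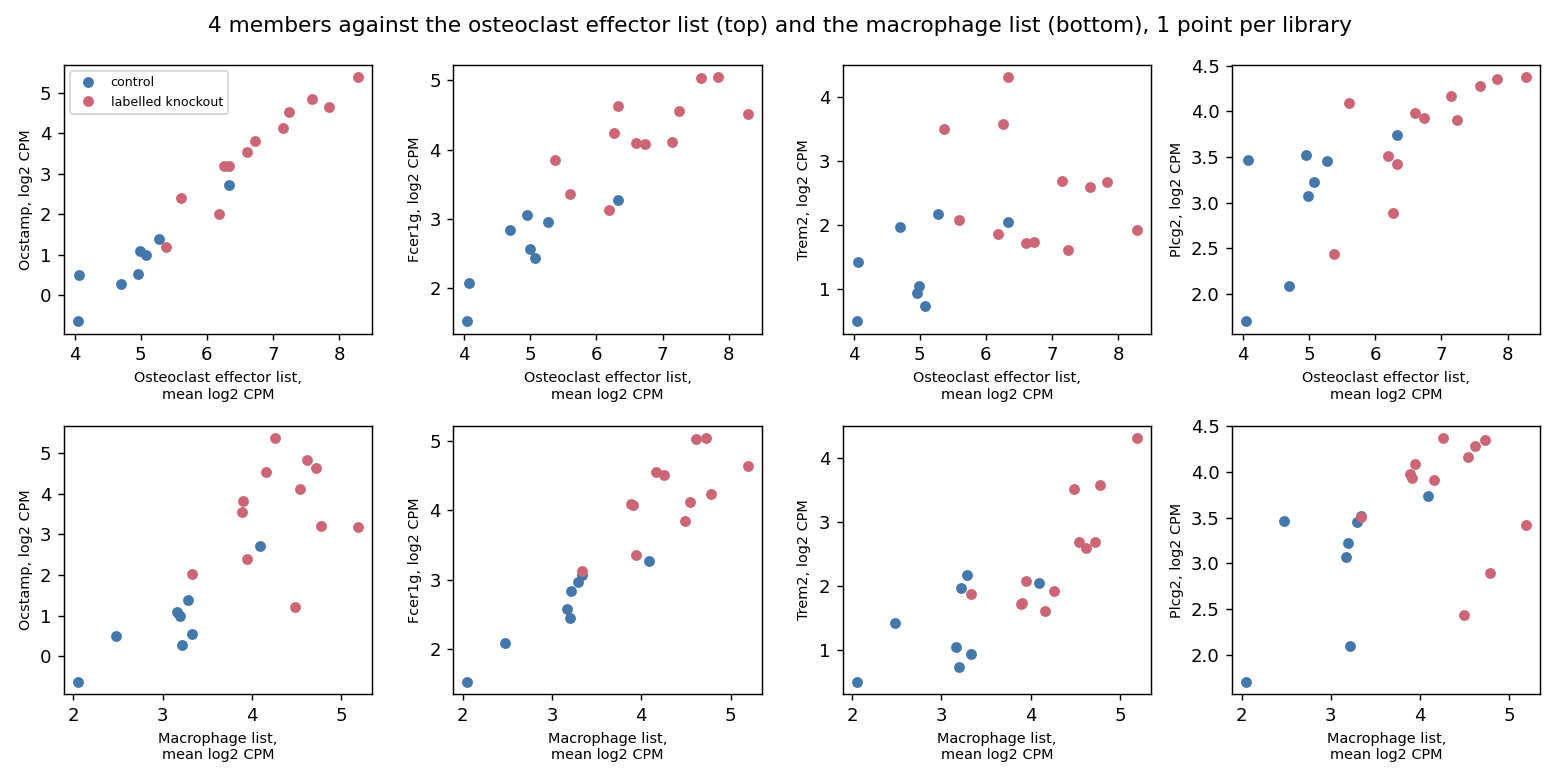
Log2 CPM of *Ocstamp*, *Fcer1g*, *Trem2* and *Plcg2* (columns) against the mean log2 CPM of the osteoclast effector list (top) and the macrophage list (bottom), 1 point per library. *Ocstamp* follows the osteoclast effector list (r = 0.95 in LOXL2_KO), and the 3 highest *Trem2* points lie near the middle or low end of that list but in the upper part of the macrophage list.

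The genes most like each member were sought among 10747 protein-coding genes with a mean of at least 5 CPM, by the same within-group r over 20 libraries. *Ocstamp* was most like *Mmp9*, *Ctsk* and *Acp5*, which encode enzymes of bone resorption, with an r of 0.97 for each. *Dcstamp* was most like *Myc* (0.96), *Mmp9* (0.96) and *Acp5* (0.95). For *Oscar* they were *Rac2* (0.94), *Nfam1* (0.92) and *Dock5* (0.92), and for *Tyrobp* they were *Spi1*, the gene of PU.1 (0.96), *Laptm5* (0.94) and *Rufy4* (0.94). *Fcer1g* was most like *Lcp1* (0.91), *Cd68* (0.89) and *Spi1* (0.88), and *Syk* most like *Dok3*, *Rac2* (both 0.85) and *Laptm5* (0.83). *Trem2* was most like *C3ar1* (0.89), *Cbr2* (0.89) and *Ctss* (0.88), of which *C3ar1* encodes a complement receptor and *Ctss* a lysosomal protease of macrophages. *Plcg2* was the exception in kind over all 20 libraries. The genes most like it were *Runx2* (0.95), the master factor of osteoblasts, *Pth1r* (0.94), the parathyroid hormone receptor, and *Col11a1* (0.94), a cartilage and bone collagen. *Plcg2* and *Runx2* were both lowest, within each group, in the libraries low in *Acan*. There *Runx2* was at 12.2 and 13.8 CPM (control replicates 6 and 8) and at 35.6, 21.3 and 42.0 CPM (knockout replicates 4, 5 and 7). Likeness without these libraries was not computed. A list of 6 osteoblast and osteocyte genes summed to 163 to 1750 CPM in control and 277 to 3690 CPM in LOXL2_KO, with 3 genes higher, and its part in the *Plcg2* level was not tested.

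Ratios of genes within a library, in which library size cancels, were used to ask whether partners changed by different amounts. The log2 ratio of *Dcstamp* to *Ocstamp* had a mean of -0.29 in the controls (SD 0.44, n = 8) and of -0.28 in LOXL2_KO (SD 0.21, n = 12), a difference of 0.01 (exact two-sided permutation p = 0.942, which was also the adjusted value over 5 ratios). The receptor *Oscar* rose more than its adaptor *Fcer1g*: the ratio was -1.39 ± 1.06 in control and -0.09 ± 0.83 in LOXL2_KO, a difference of 1.31 (exact permutation p = 0.0044, adjusted 0.022), and 10 of 12 LOXL2_KO libraries exceeded the median of the controls. Without control replicate 4, in which *Oscar* had 4 counts, the difference was 0.99 (exact permutation, adjusted p = 0.0735). *Tyrobp* over *Fcer1g* differed by 0.51 (exact permutation p = 0.0184, adjusted 0.0461), but with an adjusted p above 0.05 in 15 of the 20 fits that left out 1 library (range of adjusted p 0.00546 to 0.127, range of differences 0.40 to 0.64). *Trem2* over *Tyrobp* was -1.1 ± 0.75 in control and -2.07 ± 1.28 in LOXL2_KO, a difference of -0.97 (exact permutation p = 0.071, adjusted 0.118; -1.15, adjusted p = 0.0433 without knockout replicate 5), with 3 of 12 LOXL2_KO libraries above the median of the controls. *Plcg2* over *Syk* differed by -0.32 (exact permutation p = 0.389, adjusted 0.486).

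**Figure D5:**
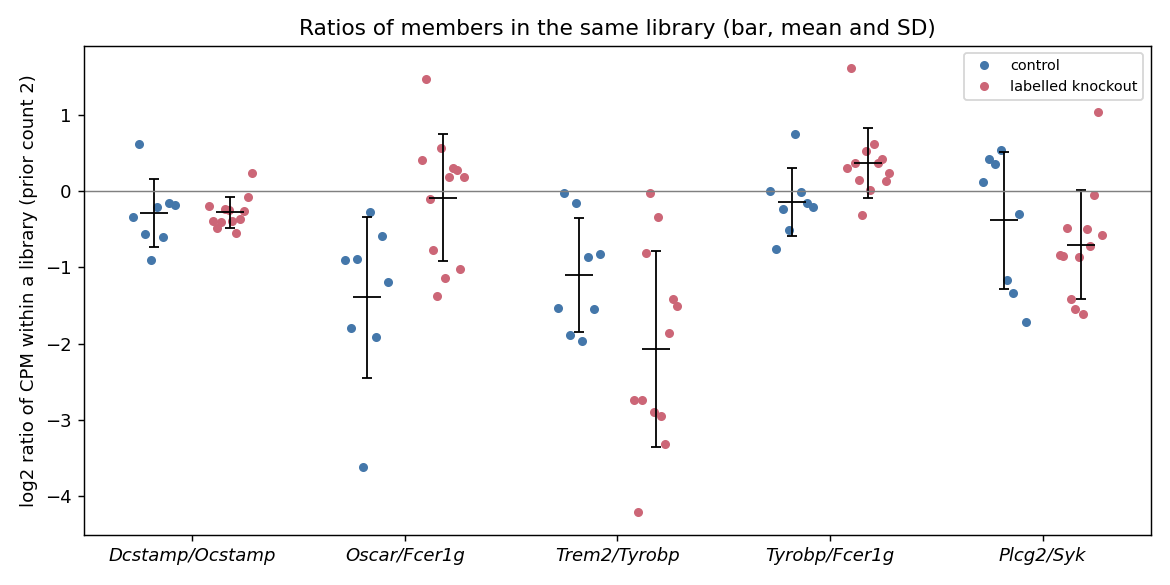
Log2 ratio of 5 pairs of genes within each library (points; control in blue, labelled knockout in red), with mean and SD as bars. The *Oscar* to *Fcer1g* ratio is higher in LOXL2_KO by 1.31, and its lowest control point, at -3.61, is replicate 4.

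Osteoclast and macrophage markers were mostly higher in LOXL2_KO, against 12% of all genes tested. So were mast cell markers, with 4 of 5 tested genes higher and a median log2 fold change of 3.35, against 2.08 for the osteoclast effectors. Markers of most other blood cells did not pass the test, which does not show that they were unchanged. Of 8 osteoclast effector genes, 7 were higher in LOXL2_KO (*Acp5* by a log2 fold change of 2.85, *Ctsk* by 2.68 and *Calcr* by 1.82), and their summed level ran from 200 to 1530 CPM in control and from 716 to 8150 CPM in LOXL2_KO. Of 10 macrophage genes, 9 were higher (*Adgre1* by 1.29, *Csf1r* by 2.0, *Cd68* by 2.20), with sums of 57.1 to 262 and 160 to 601 CPM. Osteoclasts express *Csf1r* and *Cd68* too. Of 8 neutrophil genes 1 was higher, with sums of 5.67 to 154 and 14.5 to 855 CPM, and neutrophils use *Tyrobp*, *Fcer1g* and *Syk*. The median log2 fold change of the neutrophil list was 2.06, above the 1.16 of the macrophage list. Its genes varied widely, with SE from 0.79 to 1.01. None of 5 tested monocyte and dendritic cell genes, 5 B cell genes and 3 platelet genes passed, *Gp1bb* was at 0 in every library, and none of 6 T and NK cell genes reached the filter (sums of 0.277 to 1.23 and 0.365 to 6.82 CPM). The part of neutrophils and of platelets in these results was not tested.

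When the osteoclast effector score was added to the fit, none of the 8 genes passed, and the log2 fold changes were 0.24 for *Dcstamp*, 0.40 for *Ocstamp*, 0.33 for *Oscar*, 0.43 for *Tyrobp*, 0.72 for *Fcer1g*, 1.60 for *Trem2*, -0.02 for *Syk* and -0.13 for *Plcg2*. *Trem2* had the largest value of the 8 (SE 0.51, unadjusted p = 0.00518 and adjusted p = 0.505 in edgeR). With the macrophage score in its place none passed either, and *Trem2* was at -0.17 (SE 0.41) while *Dcstamp* (1.51), *Ocstamp* (1.72) and *Oscar* (1.78) had the largest values. At an unadjusted p under 0.05 there were 2 and 5 of the 8 genes in these fits. The group accounts for 56.8% of the variance of the osteoclast effector score and 56.9% of that of the macrophage score, so such a covariate also takes up group differences, and no gene of the whole table passed in either fit.

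Other genes of the same processes were read from 4 lists, of which 63 genes were tested and 35 passed, 33 as higher and 2 as lower. Of all genes tested, 12% were higher and 11% lower. The lists, too, were chosen with earlier results of these data known. Among 12 tested genes of cell fusion 8 were higher and none lower. *Atp6v0d2*, a proton pump subunit that also serves fusion, was at 9.05 and 54.3 CPM in the means of the groups (log2 fold change 2.59, adjusted p = 0.00259). *Adam12*, a protease of myoblast and osteoclast fusion, was higher by 2.01 (adjusted p = 0.00202), and *Sirpa*, the receptor of CD47 on myeloid cells, by 0.77 (0.00233). *Sbno2*, which promotes *Dcstamp* expression, was higher by 0.77 (0.0014). *Cd200* (0.30, adjusted p = 0.297) and *Cd200r1* (0.65, 0.327) had the largest p of this list.

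Of 19 other ITAM receptors and adaptors, 11 had enough counts to be tested, and 6 were higher and none lower. This count ran from 3 to 8 when 1 library was left out, with 3 without control replicate 1, 7 or 8 or knockout replicate 3, 4 or 7. It was 2 with no filter on low counts, with the skeletal muscle score as covariate, and in the libraries with at least 20 CPM of *Acan*. *Siglec15*, a sialic acid receptor that pairs with DAP12 in osteoclasts, had the largest value, from a mean of 0.997 to one of 5.55 CPM (2.47, adjusted p = 0.00773). *Fcgr3*, an activating Fc receptor (1.30, 0.00532), *Clec7a*, the β-glucan receptor dectin-1 (1.15, 0.0247), *Cd300lb* (1.30, 0.0452) and *Hcst*, the adaptor DAP10 (1.75, 0.0488), were higher as well. *Cd247*, the ζ chain of T and NK cells (-0.63, 0.269), and *Treml1*, a platelet receptor (0.52, 0.676), did not pass. The 8 untested genes, *Trem1* and *Trem3* among them, had at most 130 counts in any library.

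Downstream of the adaptors, 10 of 24 kinases, linkers and calcium signalling genes were higher and 2 were lower. The linkers *Lcp2* (1.99, adjusted p = 0.00194) and *Lat2* (1.46, 0.00206) and the kinases *Btk* (1.44, 0.00301) and *Lyn* (0.69, 0.00203) were higher, and *Nfatc1*, the factor at the end of the pathway, was at 72.9 and 107 CPM in the group means (0.55, 0.0092). *Blnk*, another SYK linker, did not pass (-0.56, 0.0533), nor did *Vav3* (0.26, 0.498) or *Creb1* (-0.01, 0.945). Both genes that fell encode catalytic subunits of calcineurin, the phosphatase that activates NFAT: *Ppp3ca* (-0.33, 0.015) and *Ppp3cb* (-0.55, 0.0205). They were named after their values were seen, and the share of the list that fell is below the 11% of all genes. Skeletal muscle, whose genes also fell in part, expresses both. With the skeletal muscle score as covariate or a block for replicate number, no gene of the list was lower. None was lower in the libraries with at least 20 CPM of *Acan* either, and 1 was lower without control replicate 8. Over the whole table, 1755 genes were lower with group alone in all libraries. The number was 760 with the muscle score, 686 with the block and 665 in the *Acan* libraries. The part of muscle in the levels of *Ppp3ca* and *Ppp3cb* was not tested.

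Of 16 inhibitors of the pathway 9 were higher, none was lower and 7 did not pass. *Clec12a*, an inhibitory lectin receptor (1.97, adjusted p = 0.00234), *Pirb*, an inhibitory immunoglobulin-like receptor (1.32, 0.00196), *Inpp5d*, the lipid phosphatase SHIP1 (1.11, 0.00222), and *Dok3*, an adaptor that restrains DAP12 signalling (1.4, 0.00411), had the smallest p. The ubiquitin ligase *Cbl* (0.15, 0.513) and the phosphatase *Ptpn11* (0.03, 0.833), which most cells use, did not pass.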

How the data were processed

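The authors sequenced paired-end libraries on an Illumina NovaSeq instrument, mapped reads to mm10 and deposited raw counts per Ensembl gene made with featureCounts v1.5.0-p3. The aligner, annotation release and use of strand are not given in the sources used here. Sample titles gave the groups and replicate numbers, and p-values measure the spread between the 20 libraries. The 8 genes and all gene lists were chosen with earlier results of these data known. Identifiers were matched to GENCODE M21 (54495 of 54532). Genes kept by filterByExpr were tested with edgeR 4.0.16 (R 4.3.3; TMM scaling, quasi-likelihood F-test, Benjamini-Hochberg, threshold 0.05). DESeq2 1.42.0, the authors' tool, was an alternative. SE were derived from the F statistic. Log2 CPM used a prior count of 2. Ratios and *Loxl2* were compared by exact two-sided permutation over 125970 assignments in Python 3.11.15, and scripts were tested on simulated data. No 2 libraries held the same counts (smallest chi-square per degree of freedom 32.9 over 190 pairs). Named genes were the 8, *Loxl2*, 6 pathway genes chosen by name, and in each pathway list the 4 genes with the smallest p among those that passed and the 2 with the largest. The first 3 genes of a marker list and the 3 genes most like each member were also named. Promoter windows came from RefSeq. Alternatives were other scalings, filters, covariates, a replicate block and each library left out.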

Additional observations from a re-analysis of the deposited data

Results flagged for a closer look

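Among the controls, replicate 5 stood apart from the other 7 libraries for 3 of the 8 genes: *Ocstamp* at 6.47 CPM, *Tyrobp* at 16.1 CPM and *Syk* at 29.9 CPM, each with a gap to the next library that, as a share of the range of the group, exceeded the limit of Dixon's test for 8 samples. Chance alone gives such a value in about 1 of 20 groups if values are normally distributed, and 14 control groups of values were examined. The gene values were CPM without logarithm, which need not be so distributed, and the test was not run on log2 CPM. Whether these values would stand apart on that scale is therefore not shown. The 3 values come from 1 library and are not independent. Without it the log2 fold changes were 3.35 for *Ocstamp*, 2.52 for *Tyrobp* and 1.39 for *Syk*.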

How the results depend on the processing

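Across 20 fits that left out 1 library, the number of the 8 genes that passed was 7 to 8, that of pathway genes 28 to 38 and that of all genes 2551 to 4181. The *Loxl2* difference ran from 0.50 to 0.78, and the ratio differences from -0.07 to 0.14 for *Dcstamp*/*Ocstamp*, 0.99 to 1.47 for *Oscar*/*Fcer1g*, -1.15 to -0.77 for *Trem2*/*Tyrobp* and 0.40 to 0.64 for *Tyrobp*/*Fcer1g*. With the osteoclast effector score as covariate 0 of the 8 genes, 0 pathway genes and 0 genes in all passed (edgeR; 2, 9 and 1373 at an unadjusted p under 0.05), and *Syk* (-0.02) and *Plcg2* (-0.13) changed sign. With the macrophage score the counts were again 0, 0 and 0 (5, 12 and 1188 unadjusted), and *Trem2* (-0.17) and *Loxl2* (-0.08) changed sign. The skeletal muscle score left 6 of the 8, 22 pathway genes and 1777 genes, and *Syk* had an adjusted p of 0.0815. Libraries with at least 20 CPM of *Acan*, a choice made after seeing the data, gave 6, 22 and 1891. The replicate block over 16 libraries gave 7, 24 and 1786 (7, 37 and 3280 in the same libraries unblocked), and exact sign flips of the 8 pairs gave ratio differences of -0.07 for *Dcstamp*/*Ocstamp*, 1.30 for *Oscar*/*Fcer1g* (adjusted p = 0.234) and 0.55 for *Tyrobp*/*Fcer1g* (adjusted p = 0.234). Replicate numbers did not pair the libraries: same-numbered deviations correlated from -0.36 to 0.17, and 0 of 8 matched their own number best. Library totals alone moved the median of all genes to 0.12. Other scalings and filters left 7 of the 8 genes, and DESeq2 gave 8. The cause of these changes was not tested. Control levels of *Dcstamp*, *Ocstamp* and *Oscar* rest on few counts, from 4 per library upwards.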
